A study of Mus musculus with 12 samples.

Results

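The poly(A)-binding proteins and their regulators were examined as a set of 8 genes chosen by name: the cytoplasmic binding proteins Pabpc1, Pabpc2, Pabpc4 and Pabpc1l, the nuclear binding protein Pabpn1, and the interacting proteins Paip1, Paip2 and Paip2b. The table of expression values held 28643 genes with usable symbols, and 7 of the 8 were among them. The expression of Pabpc4 was not analysed here.

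The data came from round spermatids, the haploid germ cells that follow meiosis, sorted by flow cytometry from testes of male mice aged 8 weeks. Igf2bp3-/- mice carried a frameshift made with Cas9 in Igf2bp3. This gene encodes an RNA-binding protein that acts on the stability and translation of its target mRNAs. Igf2bp3+/- mice, which keep 1 intact allele, served as controls in every comparison. Per the study's methods, Igf2bp3-/- males were chosen for impaired fertility in the experiments that include these libraries. The cells were kept in cycloheximide. RNA-seq of a part of the cell extract, here called total RNA, was set beside RNC-seq, which sequences mRNAs carrying 4 or more ribosomes after a sucrose gradient. Per the study's methods, the RNA was selected by its poly(A) tail before libraries were made. How far levels and ratios depend on that capture was not tested. Each genotype and assay had 3 libraries, 12 in all, and the study took the ratio of RNC-seq to RNA-seq expression as the translation efficiency (TE).

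In the cytoplasm, poly(A)-binding proteins coat the tail of an mRNA and contact the initiation factor eIF4G at the cap, which bridges both ends of the message and favours translation, and they also shape how fast the tail is shortened. PAIP1 strengthens that bridge, while PAIP2 and PAIP2B take the binding protein off the tail and oppose translation. Male germ cells are a setting in which this system is well known, because spermatids store many mRNAs untranslated for days and carry PABP genes that other tissues hardly use.

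The most abundant member was Pabpc2, a PABP gene without introns that is expressed in testis, and in Igf2bp3+/- cells its level in total RNA exceeded that of 99.8% of genes. Pabpc1 followed and Paip2 came next, whereas Paip1 lay in the lower part of the range of all genes. Pabpc1 was lower in RNC-seq than in RNA-seq in both genotypes, by 1.88-fold in Igf2bp3+/- and by 1.75-fold in Igf2bp3-/-, and passed the limit used. Pabpc1l had the lowest ratio of RNC-seq to RNA-seq of the set in Igf2bp3+/- and passed there. Paip2 had the highest ratio of the set, but its difference passed in neither genotype. Of all genes, 43.8% passed in Igf2bp3+/- and 26.5% in Igf2bp3-/-. No member differed between genotypes at that limit, which few genes passed: 0.256% of all genes in RNA-seq, 0.115% in RNC-seq and 0.00543% for TE.

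The libraries were described by FPKM, the number of fragments scaled to transcript length and to the mapped total of the library, so levels of different genes could be set side by side within an assay. The number of reads behind each library is unknown, and between 21490 and 25633 genes were above 0 in a library. Igf2bp3 itself measured 33.4 to 38.6 FPKM in the Igf2bp3+/- RNA-seq libraries and 31.4 to 32.5 in the Igf2bp3-/- ones, so the level of a frameshifted transcript does not check the genotype. The round spermatid markers Acrv1, Spaca1, Catsper3, Catsper4, Actl7b and Sun5 summed to 1007 to 1062 FPKM in Igf2bp3+/- and 1232 to 1370 in Igf2bp3-/- RNA-seq, and to 1475 to 1585 against 1621 to 1961 in RNC-seq, without overlap. The estimate was above 0 for 6 of 6 in both assays, but 0 passed the limit used. The median log2 difference of all genes was also above 0, at 0.05 in RNA-seq and 0.13 in RNC-seq. Of single genes, 22.7% and 11.3% did not overlap between genotypes. Protamine and other markers of elongating spermatids summed to 8646 to 11039 FPKM in Igf2bp3+/- and 9614 to 9806 in Igf2bp3-/- RNA-seq. In RNC-seq they summed to 11821 to 14224 and 10553 to 21251. Spermatocyte markers summed to 71.4 to 91.8 against 83.9 to 108.5 FPKM in RNA-seq, and 103.0 to 199.4 against 83.9 to 149.6 in RNC-seq. The genotypes overlapped for both sets in each assay. Summed Leydig cell markers were 15.4 to 22.6 FPKM in Igf2bp3+/- and 48.6 to 55.0 in Igf2bp3-/- RNA-seq libraries, and 6.75 to 14.3 against 51.5 to 102.9 in RNC-seq. The summed Sertoli markers (4.47 to 5.60 against 9.04 to 9.26 FPKM in RNA-seq, 1.77 to 2.04 against 4.11 to 5.49 in RNC-seq), peritubular markers (2.21 to 2.74 against 4.59 to 5.82, and 0.827 to 1.52 against 2.68 to 4.10) and blood and macrophage markers (7.13 to 7.61 against 14.0 to 15.8, and 11.6 to 14.7 against 16.7 to 34.0) were also higher in Igf2bp3-/- without overlap. In RNA-seq the estimate was above 0 for 7 of 7 Leydig, 4 of 5 Sertoli, 2 of 5 peritubular and 7 of 7 blood and macrophage markers tested. None of these markers was at 0 in all libraries, and their part in the comparisons of genotypes below was not tested. In bulk samples, fewer cells of a type and less RNA per cell cannot be told apart.

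Pabpc1, the PABP gene used by most tissues, lies on the minus strand of chromosome 15 at 36595661 to 36609668 (GRCm38), with 15 exons in its longest coding transcript. PABP genes of this class are known for an adenine-rich stretch in the 5′ untranslated region to which the protein binds and so limits its own translation. The window of 30 bases with the most adenines was therefore read from the reference for each member, and 15974 genes with a 5′ untranslated region long enough were read the same way. Pabpc1 held 22 adenines in its window, a number that 0.795% of genes reached, and Pabpc4, which was located on chromosome 4, held 25, which 0.294% reached. Both windows are shown for their number of adenines, which are in capitals, and binding of the protein to them was not tested. The first lies at chr15:36608840-36608869 on the minus strand and the second at chr4:123282891-123282920 on the plus strand.
Pabpc1: gAAAAAAcccAAAAAAAAtttAcAAAAAAA
Pabpc4: tAAAAAAAAAAAAAAgAAAAgAAAAgAAgA

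The other members had no such window. Pabpc2 reached 6 adenines, a number that 90.4% of genes reached, and its relative Pabpc6 reached 3. Paip2 reached 15, which 13.7% of genes matched or exceeded, Pabpn1 12, Paip2b 9, Paip1 6 and Pabpc1l 1 in an untranslated region of 31 bases. The 88 tested genes with at least 22 adenines had a median log2 difference of -0.31 in Igf2bp3+/-, with quartiles at -1.01 and 0.33, against -0.25 for the 12048 other genes, with quartiles at -0.81 and 0.28. The quartile ranges of the 2 sets overlapped almost whole.

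**Figure D1:**
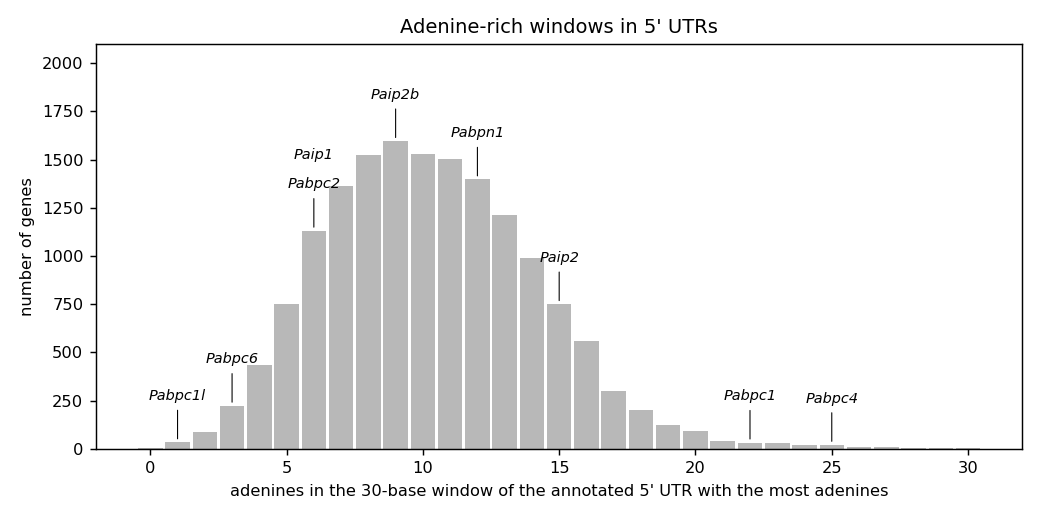
Number of genes (vertical axis) by the highest number of adenines in any 30-base window of their 5′ untranslated region (horizontal axis), with the members and Pabpc6 marked. Pabpc1 at 22 and Pabpc4 at 25 adenines sit in the right tail, while Pabpc2 at 6 and Pabpc6 at 3 sit to the left.

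Among the cytoplasmic PABP genes, Pabpc1 measured 258, 267 and 274 FPKM in the Igf2bp3+/- RNA-seq libraries and 278, 268 and 255 FPKM in the Igf2bp3-/- ones. In RNC-seq it measured 133, 134 and 159.6 FPKM in Igf2bp3+/- and 204, 156 and 112 FPKM in Igf2bp3-/-. All 6 RNC-seq libraries were below all 6 RNA-seq libraries, and the Igf2bp3-/- RNC-seq libraries were the most scattered.

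Pabpc2 lies on the plus strand of chromosome 18 at 39773497 to 39776082 as a single exon of 2586 bases. It measured 619, 717 and 639 FPKM in Igf2bp3+/- RNA-seq and 693, 669.5 and 659 FPKM in Igf2bp3-/- RNA-seq. The RNC-seq libraries held 518, 431 and 593 FPKM in Igf2bp3+/- and 511, 666 and 489 FPKM in Igf2bp3-/-. The Igf2bp3+/- RNC-seq libraries were all below the RNA-seq libraries of that genotype, whereas the second Igf2bp3-/- RNC-seq library fell among its RNA-seq libraries.

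Pabpc1l, a PABP gene best known from the oocyte, lies on the plus strand of chromosome 2 at 164025450 to 164050538 and was measured at 1.94, 1.20 and 1.38 FPKM in Igf2bp3+/- RNA-seq and at 1.23, 0.852 and 1.01 FPKM in Igf2bp3-/- RNA-seq. In RNC-seq it measured 0.357, 0.598 and 0.482 FPKM in Igf2bp3+/- and 0.582, 0.930 and 0.657 FPKM in Igf2bp3-/-. The 3 Igf2bp3+/- RNC-seq values were below every RNA-seq value, while the second Igf2bp3-/- RNC-seq value overlapped the RNA-seq values of that genotype.

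The coding transcripts of these genes are related in sequence, and reads of one could in part have been counted for another. The longest coding transcript of Pabpc1 aligned to that of Pabpc2 over 87.4% of its length at 80.3% identity, and to that of Pabpc6 over 83.7% at 78.7% identity. The closest partial copy in the table was the pseudogene Gm16580, with 97.1% identity over 37.3% of Pabpc1, and its mean level was 3.16 FPKM in RNA-seq. No tabled member had a copy of at least 95% identity over at least 50% of its length.

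Pabpn1, the nuclear PABP that stimulates tail synthesis and sets tail length, lies on the plus strand of chromosome 14 at 54892500 to 54898169 and shares 21.4% of its exonic bases with Gm20521 on the same strand, listed at a mean of 0.138 FPKM in RNA-seq, so reads there could have been split between the genes. It measured 13.4, 11.0 and 12.0 FPKM in Igf2bp3+/- RNA-seq and 11.6, 12.8 and 13.1 FPKM in Igf2bp3-/- RNA-seq. The RNC-seq values were 11.5, 8.70 and 11.6 FPKM in Igf2bp3+/- and 13.4, 11.1 and 11.3 FPKM in Igf2bp3-/-. The 4 groups overlapped one another.

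Paip2, the main PAIP2 gene, lies on the plus strand of chromosome 18 at 35598617 to 35617187. It measured 163, 147 and 119.8 FPKM in Igf2bp3+/- RNA-seq and 147, 152 and 186 FPKM in Igf2bp3-/- RNA-seq. In RNC-seq it measured 173, 159 and 175 FPKM in Igf2bp3+/- and 252, 170.4 and 205 FPKM in Igf2bp3-/-. The assays overlapped in both genotypes, although the highest value was an RNC-seq value in each.

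Paip2b, its paralog, lies on the minus strand of chromosome 6 at 83805401 to 83831741. It measured 7.03, 6.20 and 5.12 FPKM in Igf2bp3+/- RNA-seq and 5.80, 5.05 and 6.66 FPKM in Igf2bp3-/- RNA-seq, with 5.81, 4.40 and 4.44 FPKM in Igf2bp3+/- RNC-seq and 6.75, 6.23 and 5.68 FPKM in Igf2bp3-/- RNC-seq. All 4 groups overlapped, except that 2 of the 3 Igf2bp3+/- RNC-seq values were the lowest of the 12.

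Paip1, whose product joins PABP to the initiation machinery, lies on the plus strand of chromosome 13 at 119428601 to 119458218 and was barely detected. Its values were 0.294, 0.375 and 0.324 FPKM in Igf2bp3+/- RNA-seq, 0.441, 0.167 and 0.329 FPKM in Igf2bp3-/- RNA-seq, 0.219, 0.108 and 0.109 FPKM in Igf2bp3+/- RNC-seq, and 0.243, 0.158 and 0.345 FPKM in Igf2bp3-/- RNC-seq. The Igf2bp3+/- assays did not overlap and the Igf2bp3-/- assays did.

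**Figure D2:**
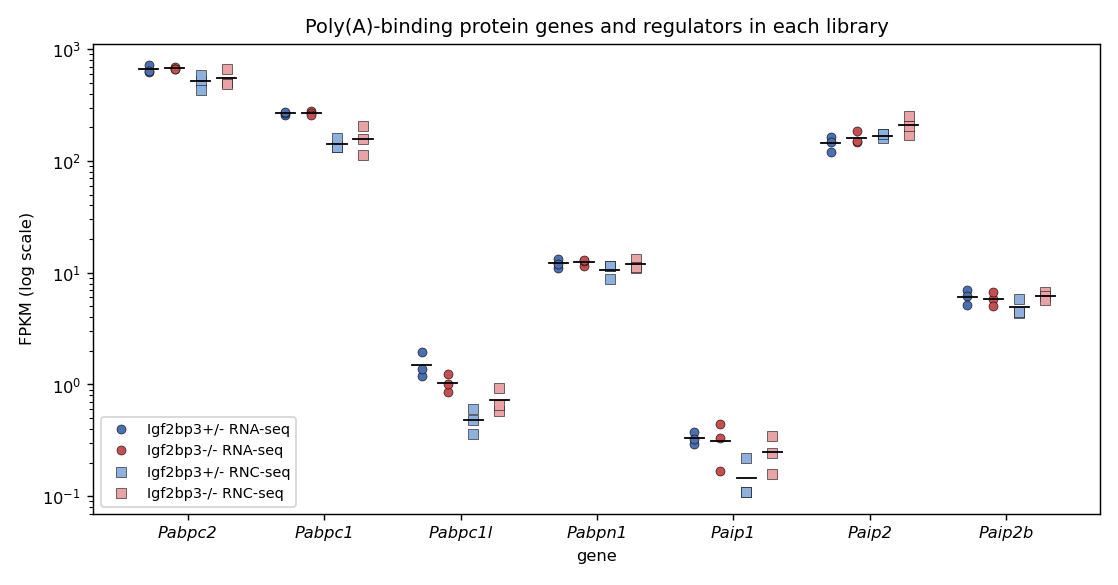
FPKM on a log axis (vertical) for the 7 measured members (horizontal axis), in the 4 groups of 3 libraries by colour and shape, with a point for each library and a line at the group mean. Pabpc2 stands highest in every group at 431 to 717 FPKM and Paip1 lowest at 0.108 to 0.441 FPKM.

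Set in order by mean level in total RNA, Pabpc2 (658 ± 51.8 FPKM, SD, n = 3, in Igf2bp3+/-) stood above Pabpc1 (266 ± 8.19), Paip2 (143 ± 22.0), Pabpn1 (12.1 ± 1.20), Paip2b (6.12 ± 0.961), Pabpc1l (1.505 ± 0.383) and Paip1 (0.331 ± 0.0408). The order in Igf2bp3-/- total RNA was the same, and no library of a member overlapped one of its neighbour in either genotype. On polysomes Paip2 took the second place in both genotypes, with 169 ± 8.64 FPKM in Igf2bp3+/- against 142 ± 15.1 FPKM for Pabpc1, but the libraries of these neighbours overlapped. The other neighbours did not overlap on polysomes.

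The ratio of RNC-seq to RNA-seq, the TE of the study and here called polysome loading, asks which transcripts were over- or under-represented on polysomes relative to total RNA. Since both assays were scaled to their own total, it is relative to the other transcripts, and the median log2 difference of all 18414 tested genes was -0.10 in Igf2bp3+/- and -0.04 in Igf2bp3-/-. Of the 7 members, 2 passed the limit of 0.05 on the adjusted p in Igf2bp3+/-, both lower on polysomes, in a comparison in which 43.8% of all genes passed, 25.2% lower and 18.6% higher. In Igf2bp3-/- 1 of the 7 passed, also lower, where 26.5% of all genes passed, 14.0% lower and 12.5% higher. The shares of members lower on polysomes were thus near those of all genes. The median log2 difference of the members was -0.37 in Igf2bp3+/- and -0.22 in Igf2bp3-/-. The most abundant gene, CT010467.1, took 5.68 to 19.4% of the summed FPKM of a library. The sums also differed, at 459762 to 479787 in RNA-seq and 578131 to 624341 in RNC-seq of Igf2bp3+/-. In Igf2bp3-/- they were 475891 to 509397 and 555464 to 624792. Rescaling made the sums without that gene equal. The median of all genes then moved by -0.20 in both genotypes, and 6 members passed in Igf2bp3+/- and 2 in Igf2bp3-/-. The parts of that gene and of the unequal sums in this were not tested. Leaving out the second Igf2bp3-/- RNC-seq library gave 3 members in Igf2bp3-/-, with Pabpc2 lower and Paip2 higher beside Pabpc1.

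Pabpc1 was the member lower on polysomes in both genotypes. Its log2 difference was -0.91 ± 0.18 (SE, limma on log2(FPKM + 0.1), adjusted p = 0.00116) in Igf2bp3+/- and -0.81 ± 0.18 (limma, adjusted p = 0.00532) in Igf2bp3-/-. The 95% intervals ran from -1.30 to -0.53 and from -1.19 to -0.42. This loading was lower than that of most genes, yet 18.8% of genes in Igf2bp3+/- and 12.8% in Igf2bp3-/- lay below it. Over 15 alternative settings in each genotype it kept its direction and passed the limit, at -1.20 to -0.74 in Igf2bp3+/- and -1.06 to -0.58 in Igf2bp3-/-.

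Pabpc1l had the lowest loading of the set in Igf2bp3+/-, with a log2 difference of -1.47 ± 0.27 (SE, limma, adjusted p = 0.000729), or 2.76-fold lower on that scale. In Igf2bp3-/- the difference was -0.47 ± 0.27 with a 95% interval of -1.05 to 0.11, and it did not pass (limma, adjusted p = 0.217). The gene was measured at 0.357 to 1.94 FPKM, near the added constant of 0.1 FPKM, so these folds understate the ratio of the FPKM values, 0.318 in Igf2bp3+/- and 0.699 in Igf2bp3-/-. With 1 FPKM added instead, the Igf2bp3+/- difference was -0.75 and still passed.

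The loading of Pabpc2 did not pass in either genotype, but its call depended on the scaling. Its log2 difference was -0.37 ± 0.16 in Igf2bp3+/- (limma, adjusted p = 0.0703, interval -0.70 to -0.03) and -0.29 ± 0.16 in Igf2bp3-/- (limma, adjusted p = 0.183). It ran from -0.68 with quantile normalization to -0.20 with median centring in Igf2bp3+/-, passing in 4 of 15 settings, and from -0.61 with quantile normalization to -0.21 in Igf2bp3-/-, passing in 3 of 15. The difference in loading between Pabpc2 and Pabpc1 was not tested. Its 3 RNC-seq libraries lay below the 3 RNA-seq libraries in Igf2bp3+/-, as did those of Pabpc1, Pabpc1l and Paip1, so 4 of 7 members did not overlap, where 55.6% of all genes did not. In Igf2bp3-/- the assays did not overlap for Pabpc1 alone of the 7, where 40.7% of all genes did not.

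Among the regulators, Paip2 was the only member with a ratio of mean FPKM above 1 in both genotypes, 1.18 in Igf2bp3+/- and 1.29 in Igf2bp3-/-. Its log2 difference was 0.25 ± 0.17 (limma, adjusted p = 0.255) in Igf2bp3+/- and 0.36 ± 0.17 (limma, adjusted p = 0.129) in Igf2bp3-/-, so neither passed. Over 15 settings the value ran from 0.0145 with quantile normalization to 0.41 with median centring in Igf2bp3+/-, where it passed (limma, adjusted p = 0.0261), and from 0.13 to 0.50 in Igf2bp3-/-, passing in 2. Paip2b gave -0.32 ± 0.18 and 0.10 ± 0.18, and Paip1 gave -0.84 ± 0.35 and -0.22 ± 0.35, with no value past the limit. After rescaling without the most abundant gene, Paip2b (-0.54) and Paip1 (-1.01) passed in Igf2bp3+/-. Pabpn1 gave -0.20 ± 0.16 and -0.07 ± 0.16, and passed in Igf2bp3+/- after that rescaling, at -0.42.

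**Figure D3:**
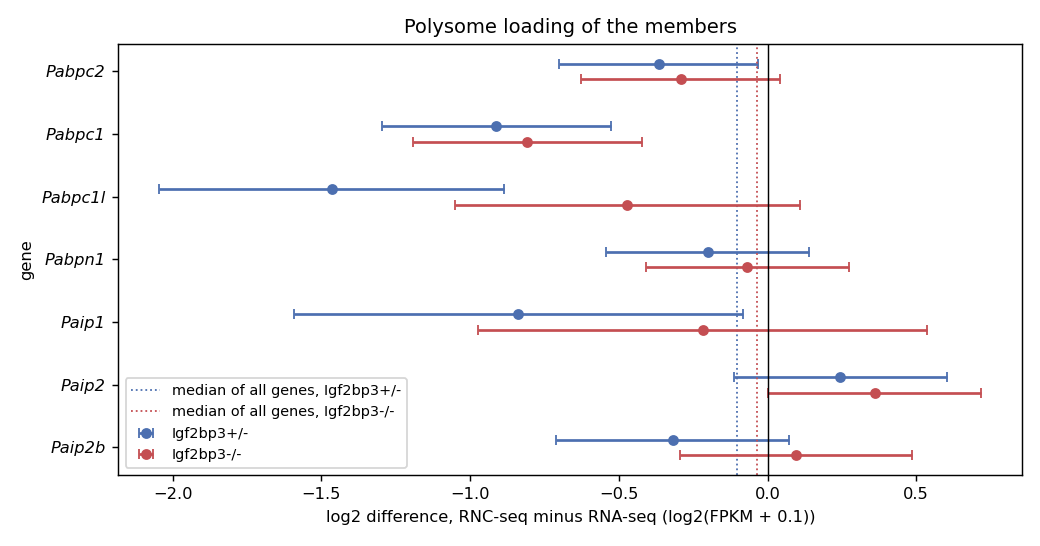
Log2 difference of RNC-seq minus RNA-seq (horizontal axis) for each member (vertical axis) in Igf2bp3+/- and Igf2bp3-/-, with points for the estimate and lines for the 95% interval. The Pabpc1 intervals end at -0.53 and -0.42, below 0 in both genotypes, while those of Paip2 reach from -0.11 to 0.60 in Igf2bp3+/-.

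Ratios of members taken within a library do not depend on a single factor by which that library is scaled. Quantile normalization uses no such factor and could change them. Pabpc2 was 2.40, 2.68 and 2.33 times Pabpc1 in the Igf2bp3+/- RNA-seq libraries and 2.49, 2.50 and 2.58 times in the Igf2bp3-/- ones. In RNC-seq the ratio was 3.90, 3.22 and 3.72 in Igf2bp3+/- and 2.51, 4.28 and 4.37 in Igf2bp3-/-. All Igf2bp3+/- RNC-seq ratios lay above all RNA-seq ratios, and the first Igf2bp3-/- RNC-seq library, in which Pabpc1 was the highest of the RNC-seq libraries, lay among the RNA-seq ratios. Pabpc6, set beside Pabpc1 in the same way, was 0.914 to 1.11 times Pabpc1 over the 6 RNA-seq libraries and 0.462 to 1.27 times over the 6 RNC-seq libraries.

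Pabpc2 made up 69.9 to 72.8% of the summed FPKM of Pabpc1, Pabpc2 and Pabpc1l in Igf2bp3+/- RNA-seq and 71.3 to 72.0% in Igf2bp3-/- RNA-seq. On polysomes the share was 76.2 to 79.6% in Igf2bp3+/- and 71.4 to 81.3% in Igf2bp3-/-. Thus Pabpc2 held most of the summed FPKM of these 3 genes in each library. The sum leaves out Pabpc6, another single-exon PABP gene, with a mean of 276 FPKM in Igf2bp3+/- RNA-seq. The share of Pabpc2 would be smaller with it.

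The ratio of Paip2 to Pabpc1 did not overlap between the assays in either genotype. Of single genes, 55.6% in Igf2bp3+/- and 40.7% in Igf2bp3-/- did not overlap either. The ratios of Pabpc2 to Pabpc1, Pabpc6 to Pabpc1 and Paip2 to Paip2b were also examined. Each of them did not overlap between the assays in Igf2bp3+/- but overlapped in Igf2bp3-/-. Ratios of gene pairs beyond these were not examined. The ratio of Paip2 to Pabpc1 holds the lower loading of Pabpc1 given above, while the loading of Paip2 by itself did not pass. The Paip2 to Pabpc1 ratio was 0.633, 0.551 and 0.437 in Igf2bp3+/- and 0.529, 0.565 and 0.730 in Igf2bp3-/- RNA-seq. On polysomes it was 1.30, 1.19 and 1.10 in Igf2bp3+/- and 1.24, 1.09 and 1.83 in Igf2bp3-/-. All 6 RNC-seq ratios exceeded all 6 RNA-seq ratios. With 3 libraries a group an exact permutation test cannot go below p = 0.1, so no p is given. Measured against Pabpc1, Pabpc2 and Pabpc1l together, without Pabpc6, Paip2 and Paip2b amounted to 0.136 to 0.194 in Igf2bp3+/- and 0.157 to 0.211 in Igf2bp3-/- RNA-seq. In RNC-seq they amounted to 0.238 to 0.289 and 0.215 to 0.362. These ranges did not overlap between assays, either.

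**Figure D4:**
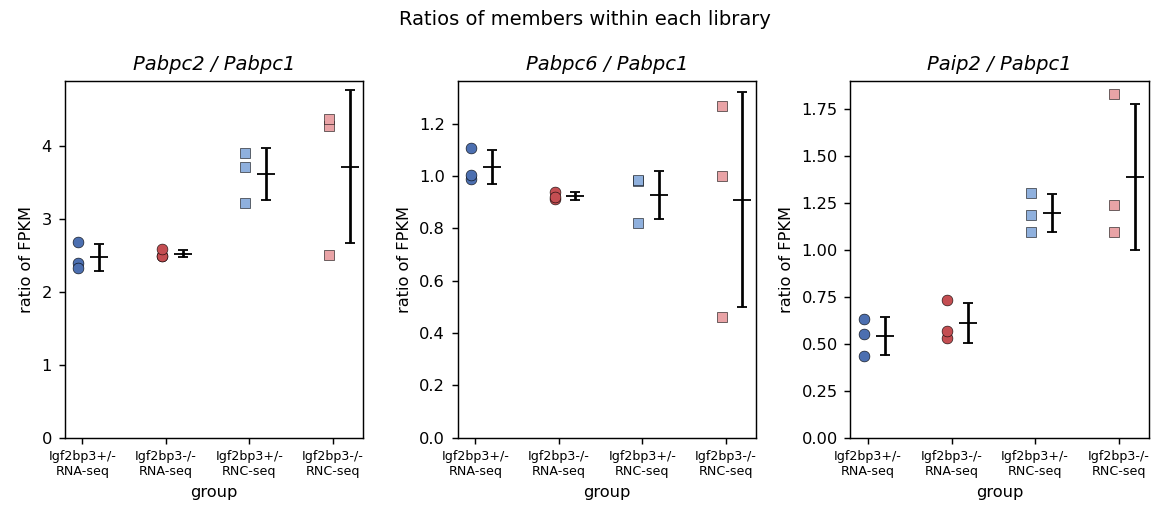
Ratios of FPKM within each library (vertical axes, from 0) for Pabpc2, Pabpc6 and Paip2 over Pabpc1 in the 4 groups (horizontal axes), with a point for each library and the mean ± SD (n = 3) beside them. The Paip2 to Pabpc1 ratio is at 0.437 to 0.730 in RNA-seq and at 1.09 to 1.83 in RNC-seq.

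The genotype comparison asks whether loss of Igf2bp3 changed the members in total RNA or on polysomes. In RNA-seq 0 of 7 members passed the limit by limma, where 0.256% of all genes passed, and 0 had an unadjusted p under 0.05, where 15.7% of all genes did. The genotypes overlapped for all 7 members, while 22.7% of all genes did not overlap. For Pabpc1 the log2 difference, Igf2bp3-/- minus Igf2bp3+/-, was 0.00 ± 0.08, with a 95% interval of -0.17 to 0.18, and for Pabpc2 it was 0.04 ± 0.09, with an interval of -0.16 to 0.23. The intervals of scarce genes were wide: Pabpc1l had -0.49 ± 0.23 (limma, adjusted p = 0.340) with an interval of -1.004 to 0.03, and Paip1 had -0.12 ± 0.32. Pabpn1 gave 0.04 ± 0.11, Paip2 0.18 ± 0.14 and Paip2b -0.06 ± 0.16.

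In RNC-seq likewise 0 of 7 members passed by limma, where 0.115% of all genes passed, and 0 had an unadjusted p under 0.05, where 6.48% did. All 7 estimates were above 0, with a median of 0.29 against 0.13 for all genes, but the signs of Pabpc1 and Pabpc2 flipped under median centring, quantile normalization and rescaling without the most abundant gene. Paip2 was higher by 0.29 ± 0.20 (limma, adjusted p = 0.831) with an interval of -0.15 to 0.73, Pabpc1l by 0.51 ± 0.34 and Paip2b by 0.35 ± 0.23. The differences of Pabpc1, 0.11 ± 0.24, and Pabpc2, 0.11 ± 0.21, were smaller than their errors. Pabpn1 gave 0.18 ± 0.22 and Paip1 0.50 ± 0.43. The genotypes overlapped for all 7 members, where 11.3% of all genes did not.

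The genotype difference in loading itself was tested as the interaction of genotype and assay. Here 0 of 7 members passed the limit by limma, where 0.00543% of all genes passed, and 1 had an unadjusted p under 0.05, where 7.13% did. That member was Pabpc1l, whose loading was higher in Igf2bp3-/- by 0.99 ± 0.38 on the log2 scale, with an interval of 0.18 to 1.81 (limma, adjusted p = 0.686). It rested on lower RNA-seq and higher RNC-seq values that each overlapped between genotypes, and with 1 FPKM added instead of 0.1 the difference was 0.51. Paip1 gave 0.62 ± 0.50, Paip2b 0.41 ± 0.26, Pabpn1 0.13 ± 0.22, Paip2 0.11 ± 0.24, Pabpc1 0.10 ± 0.25 and Pabpc2 0.07 ± 0.22. The interval for Pabpc1 ran from -0.44 to 0.65 and that for Pabpc2 from -0.40 to 0.55. Differences within those bounds are compatible with the data, and the larger estimate of Pabpc1l did not pass the limit either.

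The genes that work with the members were taken from lists of known partners. Of 6 other PABP genes, 2 were tested. Pabpc6, a single-exon gene on chromosome 17 that was nearly as abundant as Pabpc1 in total RNA at 234 to 296 FPKM, measured 94.1 to 197.4 FPKM in RNC-seq. Its log2 loading was -1.07 ± 0.22 (limma, adjusted p = 0.00168) in Igf2bp3+/- and -0.95 ± 0.22 (limma, adjusted p = 0.0072) in Igf2bp3-/-. Its RNC-seq libraries lay below its RNA-seq libraries in both genotypes, as those of Pabpc1 did. Pabpc5 was listed at 0.0318 to 0.436 FPKM in RNA-seq of Igf2bp3+/- and passed no test.

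The list of initiation partners and related factors of the bridge between cap and tail held 7 genes. Of these, 5 were lower on polysomes and 0 higher in Igf2bp3+/-, where 25.2% of all genes were lower and 18.6% higher. Their median log2 difference was -0.91 against -0.10 for all genes. In Igf2bp3-/- 4 were lower and 1 higher, where 14.0% of all genes were lower and 12.5% higher, with a median of -0.73 against -0.04. Eif4g1, the scaffold that binds PABP at the cap, fell by 2.05 on the log2 scale (limma, adjusted p = 9.71e-06) in Igf2bp3+/-, and Eif4g2, a related scaffold that lacks the PABP-binding region, fell by 2.02 (limma, adjusted p = 1.69e-05). In FPKM, Eif4g1 measured 52.5, 51.6 and 60.2 in Igf2bp3+/- RNA-seq and 11.9, 10.6 and 17.7 in RNC-seq of that genotype, with no overlap. The gene higher in Igf2bp3-/- was Eif4a1, the RNA helicase of the cap complex, with a log2 difference of 0.59 (limma, adjusted p = 0.0368), named after its value was seen.

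Other proteins that bind cytoplasmic PABP or PAIP2 were 15 genes, of which 12 were lower and 0 higher on polysomes in Igf2bp3+/-, and 10 lower and 0 higher in Igf2bp3-/-, beside 25.2% and 14.0% of all genes lower. Their median log2 differences were -1.21 and -0.90, against -0.10 and -0.04 for all genes. The lowest was Atxn2l, the ataxin-2-like protein, at -3.06 (limma, adjusted p = 7.49e-06), whose RNA-seq libraries measured 612, 658 and 695 FPKM and whose RNC-seq libraries measured 66.9, 85.6 and 84.0 FPKM in Igf2bp3+/-. Tnrc6c, a GW182 protein that links microRNAs to tail shortening, was next at -2.02 (limma, adjusted p = 4.5e-05).

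Of 9 deadenylase genes, which shorten the tail, 3 were lower and 0 higher on polysomes in Igf2bp3+/-, near the 25.2% of all genes that were lower, and their median of -0.12 was near the -0.10 of all genes. In Igf2bp3-/- 0 deadenylases passed by limma, where 26.5% of all genes passed, and 1 had an unadjusted p under 0.05; after rescaling without the most abundant gene 2 passed, and with library weights 1. Pan2 and Pan3, the subunits of the nuclease that PABP recruits, were at -1.03 (limma, adjusted p = 0.00301) and -0.88 (limma, adjusted p = 0.00147) in Igf2bp3+/-. Of 5 germ-cell regulators of tails or of tail-bound translation, 4 were tested for loading; 2 were lower in Igf2bp3+/- and 1 in Igf2bp3-/-, beside 25.2% and 14.0% of all genes. In Igf2bp3+/- these were Papolb, the testis poly(A) polymerase, at -0.89 (limma, adjusted p = 0.0273) and Dazl, which recruits PABP to germ-cell mRNAs, at -0.63 (limma, adjusted p = 0.0273). Both calls were lost with median centring, in a fit of the 6 libraries of that genotype alone, and without Igf2bp3+/- RNA-seq replicate 2 or RNC-seq replicate 2, and 1 call was left with quantile normalization, with the replicate block, and without RNA-seq replicate 1 or 3. In Igf2bp3-/- no call was left without RNA-seq replicate 2 or 3. No gene of the 5 lists passed by limma in a comparison of genotypes in RNA-seq, in RNC-seq or in loading. At an unadjusted p under 0.05 the initiation partners had 2, 1 and 1 genes in these 3 comparisons, the binders 0, 2 and 4, the deadenylases 3, 1 and 0, the germ-cell regulators 2, 0 and 0, and the other PABP genes 0, 0 and 0. Of all genes, 15.7%, 6.48% and 7.13% met that criterion in these comparisons.

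**Figure D5:**
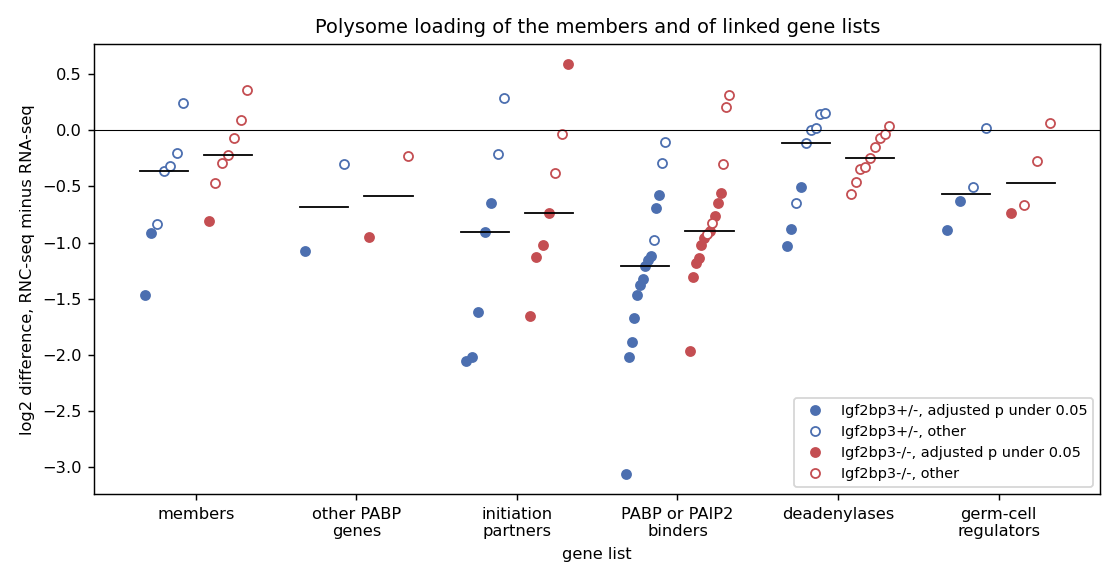
Log2 difference of RNC-seq minus RNA-seq (vertical axis) for the members and the genes of the 5 lists (horizontal axis) in Igf2bp3+/- (blue) and Igf2bp3-/- (red), with a point for each gene, filled where the adjusted p was under 0.05, and a line at the median. In Igf2bp3+/- the binders of PABP or PAIP2 reach from -3.06 to -0.11 and the deadenylases from -1.03 to 0.16.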

How the data were processed

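The deposited table gave FPKM for 12 libraries in 1 file. Per the labels and the study's methods, the authors trimmed reads with Trim Galore 0.6.6, aligned them to GRCm38 (mm10) with HISAT2 and estimated FPKM with StringTie 2.1.7, after base calling with CASAVA 1.8. The annotation release and the use of strand were not given in the sources used here. The labels and the methods name different kits and sequencers. Columns headed WT were the Igf2bp3+/- libraries. Low values gave no stable estimate of depth, so read numbers are unknown and no counting interval is given. Symbols that a spreadsheet had turned into dates, 25 of 28668 with 0.0995% of the summed FPKM, were left out.

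The count test of the study's methods needs reads, so log2(FPKM + 0.1) was tested instead with limma 3.58.1 in R 4.3.3, with an intensity trend, two-sided, on the 6 libraries of an assay for genotype and on all 12 for loading and its genotype difference. Genes needed a mean above 0.1 FPKM in each assay tested. Adjusted p-values are Benjamini-Hochberg values over all genes tested (20352 in RNA-seq, 19051 in RNC-seq, 18414 for loading), with a limit of 0.05, and fold changes are on that log2 scale, which understates the change of low genes. Per the study's methods, cells were isolated from each mouse and the extract was split between both assays. Where libraries of both assays had one number, however, their deviations from the group means correlated at -0.10 to 0.21, so numbers were not taken as pairs. The labels do not say that replicates are separate animals, but the study calls them biological replicates. The p-values measure the spread between these libraries. Positions, 5′ untranslated regions and sequences came from GRCm38 with GENCODE release M21, to which 27839 symbols matched, and transcripts were compared with BLAST 2.17.0. Scripts were tested on simulated data.

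The members and lists were chosen with earlier results of these data known. Members are always named. For each list, genes past the limit between genotypes are named, and for loading in Igf2bp3+/- the 2 with the largest difference past it in each direction. Alternatives were another added constant, no filter, other scalings, library weights, other criteria and sets of libraries, a replicate block and leaving out each library.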

Additional observations from a re-analysis of the deposited data

How the results depend on the processing

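Most settings kept the calls of the members; the cause was not tested unless the setting itself used fewer libraries or genes. In loading, members past the limit numbered 6 in Igf2bp3+/- after rescaling without the most abundant gene, and 2 in Igf2bp3-/- after median centring, quantile normalization or that rescaling; leaving out 1 library gave 2 to 3 and 1 to 3. The criterion of an unadjusted p under 0.05 with over 1.5-fold called 1 member for the genotype difference in loading. In Igf2bp3+/-, of 15 settings, Pabpc2 passed in 4, Paip1 in 2, and Pabpn1, Paip2b and Paip2 in 1 each, Paip2 being higher; in Igf2bp3-/- Pabpc2 passed in 3 and Paip2 in 2. Of the counts of the 5 lists under alternatives, 379 stayed within 1.5 times, 10 fell and 11 rose; the germ-cell regulators in Igf2bp3+/- fell from 2 to 0 with median centring and in the 6 libraries of the genotype alone, to 1 with quantile normalization or the replicate block, and to 0 to 2 with 1 library left out.

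Of all genes, RNA-seq called 52 between genotypes, but 31 with no filter, 84 with library weights (54 higher and 30 lower), 1109 by the unadjusted criterion, 4 with the replicate block, and 9 to 38 with 1 library left out. RNC-seq called 22, but 2 with no filter, 13 with median centring (6 higher), 12 with quantile normalization (5 higher), 1102 by the unadjusted criterion, 48 in a fit over all 12 libraries, and 0 to 20 with 1 left out, 0 being without the first Igf2bp3-/- library. The loading difference called 1, but 0 with 1 FPKM added, with library weights or with the block, 1207 unadjusted, and 1 to 2 with 1 left out. Loading in Igf2bp3-/- called 4886 genes and 3089 to 6227 with 1 left out. Over 1.5 times fewer were called without any RNA-seq library but the third Igf2bp3+/- one in RNA-seq, without any RNC-seq library but the first Igf2bp3+/- one in RNC-seq, and without RNA-seq replicate 1 or 2 or RNC-seq replicate 3 for loading in Igf2bp3-/-; the loading difference called 2 without the third Igf2bp3+/- RNC-seq library.

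Signs of small differences flipped. In RNA-seq, quantile normalization gave Pabpc1 -0.166, Pabpc2 -0.0925 and Pabpn1 -0.0225, rescaling -0.119, -0.0863 and -0.0774, and library weights Pabpc2 -8e-04; with 1 library left out the range was -0.0263 to 0.036 for Pabpc1, -0.0071 to 0.0991 for Pabpc2, -0.0238 to 0.117 for Pabpn1, -0.345 to 0.165 for Paip1 and -0.185 to 0.041 for Paip2b. In RNC-seq, Pabpc1 and Pabpc2 were at -0.0115 and -0.009 with median centring, -0.0225 and -0.0079 with quantile normalization and -0.0108 and -0.0084 with rescaling, and -0.1004 to 0.33 and -0.0283 to 0.219 with 1 library left out. For the loading difference, median centring gave Pabpc1 -0.0253, Pabpc2 -0.0556 and Paip2 -0.0148; with 1 left out the ranges were -0.104 to 0.327, -0.0644 to 0.183 and -0.0292 to 0.253, and for Pabpn1 -0.0022 to 0.201. Loading in Igf2bp3-/- gave Paip2b -0.121 with rescaling and -0.0027 to 0.194 with 1 left out, and Paip1 -0.503 to 0.0072.

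The replicate block changed no call of a member and moved 1 list count by over 1.5 times, that of the germ-cell regulators in Igf2bp3+/-. The scale sets how far a median of all genes moves, by up to 0.20 in size, and the member order of levels, checked after seeing the data under other scalings and without each library, kept all 7 places.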

Other observations

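The genes whose log2 FPKM followed a member most closely over the 12 libraries were looked up among 11388 genes with a mean of at least 1 FPKM. For Pabpc1 they were Capn11, with a Pearson r of 0.992, and Traf3ip1, with 0.985. For Pabpc2 they were Cdkal1 at 0.968 and Atxn10 at 0.963, and for Paip2 Smco4 at 0.940 and Atp5j at 0.939. Pabpn1 was most like Map3k7 at 0.914 and Hnrnpf at 0.887, and Paip2b most like Gm3379 at 0.897 and Glt1d1 at 0.882. Pabpc1l and Paip1 fell under the minimum level. These values are a description: the points share the difference between the assays and the scaling of each library.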
